A study of Danio rerio with 4 samples.

Results

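Smooth muscle lines the gut, the swim bladder and the larger vessels of the zebrafish, and it is built late compared with the striated muscle of the trunk. Its contractile apparatus uses its own actin and myosin isoforms together with actin-binding proteins, and in vertebrates these genes are switched on by serum response factor with its cofactor myocardin. The swim bladder, the gas-filled organ that gives the larva its buoyancy, has an inner epithelium, a middle mesenchyme that forms smooth muscle, and an outer mesothelium for which annexin A5 has been used as a marker in zebrafish.

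The 4 genes described here are acta2 (smooth muscle alpha actin), tagln (transgelin, also known as SM22 alpha, an actin-binding protein), myh11a (smooth muscle myosin heavy chain) and anxa5a (annexin A5a, a protein that binds phospholipid in the presence of calcium). They were taken as every probe whose RefSeq accession maps to one of these symbols, which gave 5 probes, 2 for myh11a and 1 for each of the others, out of 13366 named genes and 43569 probes. All 5 probes were well above background on all 4 arrays, so none was lost to the filter on dim probes and none had only a bound. The tagln and anxa5a probes had low intensities at 24 hpf all the same. In mouse and human the first 3 genes mark smooth muscle, but actin alpha 2 and transgelin are also made by other young muscle and by activated fibroblasts. The annexin with a swim bladder record known here is anxa5b, and anxa5a is its paralog, so the name "swim bladder gene" for anxa5a rests on its label alone.

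RNA of whole zebrafish embryos was hybridised to 4 one-colour arrays, 1 for each combination of 24 or 96 hours post fertilization (hpf) and 0 or 3.9 µM copper in the water. No strain, transgene or number of pooled embryos is given in the labels. There was 1 array per group, so a copper difference at one age compares 2 arrays, has no replicate error and carries no p-value, and the number of arrays limits the precision. In whole embryos, fewer cells of a type and less RNA per cell cannot be told apart. The sample labels and the names of the deposited scanner files give opposite treatments at both ages. Groups here follow the labels, every copper difference is taken as copper label minus control label, and its sign turns if the file names are right. The 24 hpf array labelled copper was the brightest, with a median processed intensity of 364.6 against 161.7 to 193.6 on the others, and all 4 arrays came from 1 slide and 1 scan. Levels below are quantile-normalized intensities, which are comparable between arrays for one probe but not between probes.

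At 24 hpf all 4 genes were at the low end of their range, and at 96 hpf all were higher on both arrays. For acta2, which forms the thin filaments of the contractile apparatus, the normalized intensity was 493 in the control and 308 in the copper array at 24 hpf, and 13901 and 38547 at 96 hpf. Its lowest 96 hpf value thus stood far above its highest 24 hpf value, and the 96 hpf copper array was the highest of the 4. For tagln, which binds actin filaments beside it, the values were 43.6 and 33.0 at 24 hpf, and 1722 and 4519 at 96 hpf. The brighter myh11a probe, which reads the thick-filament motor, gave 619.7 and 402 at 24 hpf, and 6326 and 12949 at 96 hpf. Its dimmer probe gave 79.9 and 113 at 24 hpf, and 928 and 1748 at 96 hpf. Both myh11a probes had the same order of ages, and they differed in which 24 hpf array was higher. For anxa5a the values were 38.7 and 24.6 at 24 hpf, 254 in the 96 hpf control and 1569 in the 96 hpf copper array. The ages did not overlap for any of the 5 probes, and the 96 hpf copper array was the highest in each. How many of all probes had this order was not counted, so it is a description only.

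**Figure D1:**
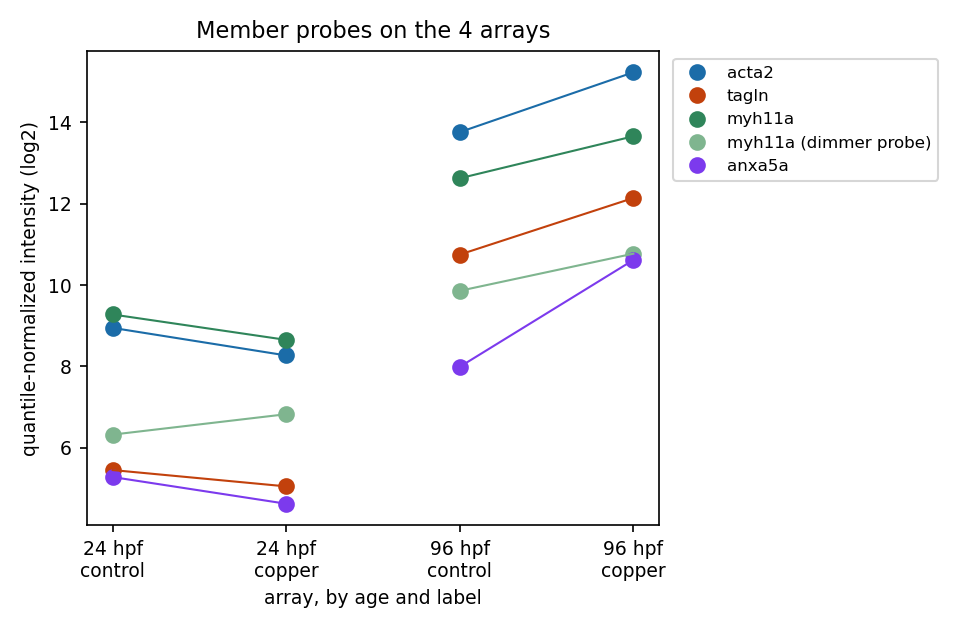
Quantile-normalized intensity (log2, vertical axis) of the 5 member probes on the 4 arrays (horizontal axis, 1 array per group); lines join the 2 arrays of an age. All 5 probes are higher on both 96 hpf arrays than on either 24 hpf array, and at 96 hpf all 5 lines go up from the control to the copper label. The share of all probes with this order was not counted.

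The age comparison asks how far these genes had come on between the first day and the free-swimming larva. A limma model with terms for age and for copper, fitted on the 4 arrays to all 36026 probes that passed the filter, with Benjamini-Hochberg adjustment over all of them, called all 5 member probes higher at 96 hpf. Over all probes 14.9% were called higher, and over the 12332 genes by their brightest probe 17.3%. The members were chosen with earlier results of these data known, so these shares are a background and not a test. Tagln rose by 6.20 on the log2 scale (SE 0.53, adjusted p = 3.23e-05, 4 arrays in the limma fit), or 73.5-fold. Acta2 rose by 5.89 (SE 0.49, adjusted p = 2.61e-05), or 59.4-fold. These were among the larger rises on the array, since 0.769% of probes exceeded that of tagln and 0.888% that of acta2. Myh11a rose by 4.18 (SE 0.46, adjusted p = 0.000134) on its brighter probe and by 3.74 (SE 0.46, adjusted p = 0.000259) on the dimmer one, which are 18.1-fold and 13.4-fold. Anxa5a rose by 4.36 (SE 0.70, adjusted p = 0.00137), or 20.5-fold. The anxa5a and tagln probes were dim at 24 hpf, so the sizes of these 2 rises rest on dim values. Processed intensities there were 27.6 in the control and 39.4 in the copper array for anxa5a, and 31.3 and 52.8 for tagln. Under normexp, with an offset of 50, the rises of anxa5a and tagln were smaller, at 2.74 and 4.85 in log2. Both were still called (limma adjusted p = 0.00624 and 0.000281). Whether the offset made them smaller was not tested. The median over the 4 genes was 5.12, against -0.10 for all genes. The model has 1 residual degree of freedom, which comes from the unlike copper values of the ages and not from replicates. The SE and p-values are moderated, with each probe's variance drawn by eBayes toward that of all probes of like intensity. With age alone in the model and the 24 hpf array labelled copper left out, the anxa5a rise was 4.03 and was not called (adjusted p = 0.0742 in limma), and acta2, tagln and myh11a were still called.

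The rise was seen within each treatment label, where it rests on 1 array per age. Among the control arrays acta2 was 28.2-fold higher at 96 hpf, tagln 39.5-fold, myh11a 10.2-fold and 11.6-fold on its probes, and anxa5a 6.56-fold. Among the copper arrays the same values were 125.1-fold for acta2, 136.9-fold for tagln, 32.2-fold and 15.5-fold for myh11a and 63.9-fold for anxa5a. Every probe thus differed more between the ages among the arrays labelled copper, by the least for the dimmer myh11a probe and by the most for anxa5a.

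The copper comparison at 96 hpf asks how larvae kept in copper differ from untreated larvae. All 4 genes were higher by 2-fold or more in the array labelled copper on their brightest probes, where 5.67% of all genes were. As the members were chosen with earlier results of these data known, this share is a background and not a test. Acta2 was 2.77-fold higher (1.47 in log2), tagln 2.62-fold (1.39) and myh11a 2.05-fold (1.03). The dimmer myh11a probe fell just short at 1.88-fold (0.91), so that 4 of 5 probes passed 2-fold, against 5.2% of all probes. Anxa5a stood apart from the smooth muscle genes at 6.18-fold higher (2.63 in log2), and 0.602% of all probes had a larger difference in that direction. The corresponding shares were 2.48% for acta2, 2.78% for tagln, 4.94% for the brighter and 6.03% for the dimmer myh11a probe. The median over the 4 genes was 1.43, against -0.05 over all genes. Scaling by the 75th percentile of each array, or normexp background correction before quantile normalization, left acta2 between 1.47 and 1.59, tagln between 1.35 and 1.39, and anxa5a between 2.32 and 2.63. Myh11a lies close to the threshold, and the mean of its 2 probes, 0.97, is below it.

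The members' count at 96 hpf can also be read against genes that, like them, were called higher with age. Of the 2136 genes called higher with age, 19.7% were higher by 2-fold or more in that array. The 2 comparisons share the 96 hpf arrays, so this share is a background and not a separate result. It takes in every gene called higher, whatever the size of its rise, and the members rose by 4.18 to 6.20 (log2) on their brightest probes. The share among genes with rises as large as the members' was not counted.

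In the authors' deposited table, whose probe coordinates are on Zv9, the brightest probe of each of the 4 genes is listed at 96 hpf, with the opposite sign, since that table names the arrays as the files do. It gives acta2 a log2 fold change of -1.47 for a probe on chromosome 12 from 18183192 to 18183251, and tagln -1.39 for a probe on chromosome 15 from 542775 to 542834. It gives the brighter myh11a probe -1.03, on chromosome 6 from 9296272 to 9296331. For anxa5a the same authors' deposited table gives -2.63 for a probe on chromosome 14 from 49369371 to 49369654, a span of 284 bases of the genome, where the other 3 probes span 60 bases each. Neither these 4 probes nor the dimmer myh11a probe is in that table at 24 hpf. The transcript parts under the probes were not analysed here.

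At 24 hpf none of the 5 probes differed by 2-fold between the labels, where 9.45% of all probes were higher and 6.1% lower by that much. On quantile-normalized values 4 of 5 were lower in the array labelled copper, by 0.68 (log2) for acta2, 0.63 for the brighter myh11a probe, 0.66 for anxa5a and 0.40 for tagln. The dimmer myh11a probe was higher by 0.50. Over all genes the median at 24 hpf was -0.26, and each difference is read against it. With 75th-percentile scaling the differences were -0.38 for acta2, -0.36 for the brighter myh11a probe, -0.25 for anxa5a and -0.006 for tagln, against a median of -0.27 over all genes. Under normexp they were -0.52, -0.50, -0.15 and -0.16 in the same order, against -0.21. Before normalization all 5 probes were brighter in the array labelled copper, acta2 with 520.2 against 398 and anxa5a with 39.4 against 27.6. At 24 hpf the size of the difference thus depended on the normalization for all 4 genes. Anxa5a and tagln were lower than the median gene on quantile-normalized values and not under either alternative. Against the median over all probes, 0.03 with 75th-percentile scaling and -0.07 under normexp, anxa5a and tagln were lower under both. The sign of myh11a depended on the choice of probe.

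**Figure D2:**
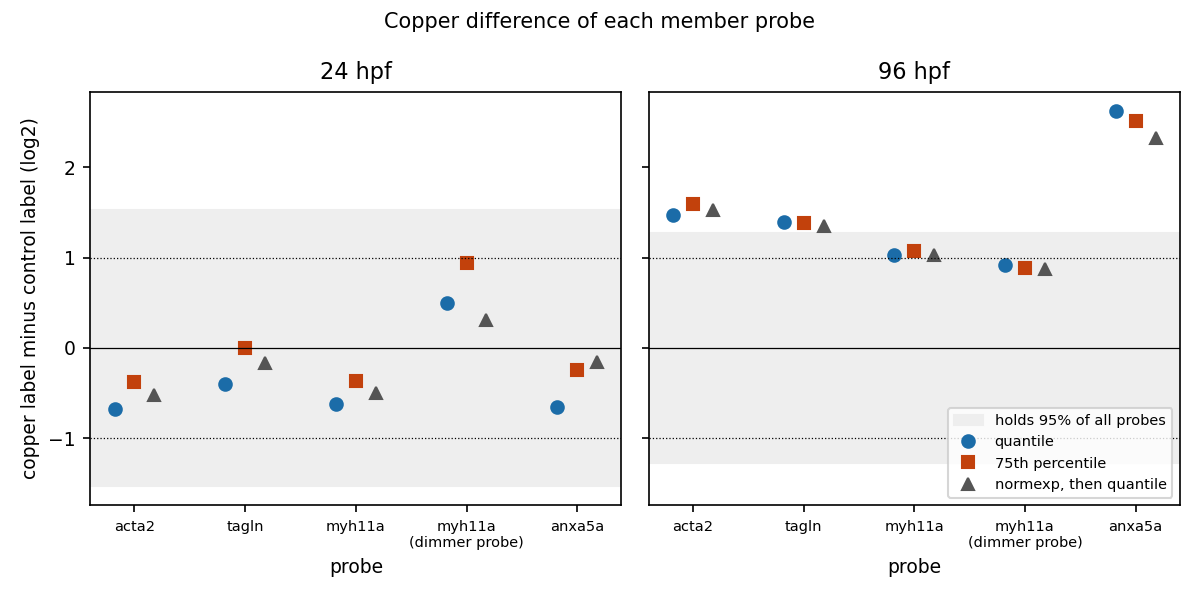
Copper label minus control label (log2, vertical axis) for the 5 member probes at 24 hpf (left) and 96 hpf (right) under 3 normalizations (symbols). The grey band holds 95% of all probes that passed the filter, by their quantile-normalized differences only. Dotted lines mark 2-fold. At 24 hpf every value lies inside the band, and at 96 hpf acta2, tagln and anxa5a lie above it under all 3 while both myh11a probes lie inside it.

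No member passed a test of copper over both ages. In the same limma model the copper term was 0.40 for acta2 (SE 0.49), 0.49 for tagln (SE 0.53), 0.20 for the brighter myh11a probe (SE 0.46), 0.71 for the dimmer one (SE 0.46) and 0.99 for anxa5a (SE 0.70). Limma called 0 of the 5 probes and 0 of all 36026, with an adjusted p of 0.9999 for each member. At an unadjusted p under 0.05 there were 0 member probes and 710 in all, or 1.97%. This term is the mean of the differences at both ages, and for the brightest probe of each gene the 2 ages had opposite signs. The difference at 96 hpf exceeded that at 24 hpf by 3.28 (log2) for anxa5a, 2.15 for acta2, 1.79 for tagln, 1.66 for the brighter myh11a probe and 0.41 for the dimmer one.

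Other genes of the contractile apparatus were taken from a list of 33, of which 18 had a probe named here and 17 passed the filter, the 3 smooth muscle members among them. This list and those below were chosen with earlier results of these data known. The shares of all genes given beside them are a background and not a test. At 96 hpf 7 of the 17 were higher by 2-fold or more in the array labelled copper and 0 were lower, where 5.51% of genes were higher and 1.67% lower by this measure, with genes dim on one array at their bounds. The list median was 0.25 and that of all genes -0.05. Without the members it was 0.02, with 4 of 14 higher by 2-fold or more. These 4 were desmb, csrp1b, tpm4b and cald1a. Desmb, a desmin of the intermediate filaments in muscle, was 3.54-fold higher on its brightest probe and higher on 3 of 3 probes. The LIM-domain gene csrp1b was 2.83-fold higher, and the tropomyosin gene tpm4b was 3.08-fold higher, on 1 probe each. The caldesmon gene cald1a was not well above background in the 96 hpf control and was at least 3.37-fold higher, but by 0.31 in log2 under normexp. The other 10 differed by less than 2-fold on their brightest probes, among them the myosin light chains myl9a (-0.08) and myl9b (-0.19) and the second desmin, desma (0.03). Other probes of some of these genes read differently. The dimmer myl9a probe was 0.52 higher at 96 hpf and was called higher with age (limma adjusted p = 0.00141), by 1.97 among the control arrays and 3.03 among the copper arrays. Of the 4 myl9b probes the 2 dimmest were higher by 0.56 and 0.46. For csrp1a, a paralog of csrp1b, 1 of 3 probes was 4.49-fold lower, and the other two differed by -0.03 and 0.05.

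The contractile genes also changed with age, though not all one way. Of the 17, limma with Benjamini-Hochberg adjustment over all probes called 9 higher and 2 lower at 96 hpf, where 17.3% and 15.1% of all genes were, and the median was 0.97, or 0.32 without the members. On neither 24 hpf array was desmb or csrp1b well above background. At 96 hpf desmb was at least 147.6-fold and csrp1b at least 56.5-fold higher, with limma adjusted p-values of 7.27e-06 and 9e-06 that rest on dim 24 hpf values. Tpm1 rose by 2.08 and tpm4b by 1.59, while desma fell by 0.60 and the light chain myl6 by 0.89. At 24 hpf vcla, the vinculin that anchors actin at adhesions, was 2.09-fold higher in the array labelled copper on its brightest probe and higher on 3 of 3, and was the 1 gene of 15 past 2-fold, where 3.09% of all genes were higher by that much. Under normexp the 24 hpf difference of vcla was 0.76 in log2. The 2 dimmest myl9b probes were higher at 24 hpf by 2.75 and 2.90, and its 2 brightest lower by 0.48 and 0.47. Probes of the cytoplasmic actin actb2 also disagreed there, with 0.07 on the brightest and 2.37 on the dimmest. For the skeletal muscle gene myhz1.1 the values were -0.12 and 3.06. Not every dim probe read high, with -1.35 on the dimmest probe of the annexin anxa4. The vcla probes had log2 intensities of 3.94 to 8.05 in the 24 hpf control, and 9.45% of all probes were higher by 2-fold at 24 hpf. Whether the vcla difference follows from probe brightness was not tested.

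Relatives of the members in the same gene families had other values. In the list of actins, transgelins and myosin heavy chains 12 of 13 genes with a probe passed the filter. By brightest probes limma called the 3 smooth muscle members higher with age and 0 of the other 9 in either direction. Over all genes 17.3% were called higher and 15.1% lower. Among the other probes of those 9, 1 of actc1b was called higher (0.98, limma adjusted p = 0.0051) and 1 of acta1a lower (-0.67, limma adjusted p = 0.0361). None of the 9 differed by 2-fold at 96 hpf on its brightest probe. On these probes the skeletal actins acta1a and acta1b differed by -0.38 and -0.33 at 96 hpf, the cardiac type actins actc1a and actc1b by -0.15 and 0.41, and the cytoplasmic actins actb1 and actb2 by -0.03 and 0.02. Tagln2 differed by 0.15, tagln3b by -0.52 and the nonmuscle myosin heavy chain myh9a by 0.05. Actins are near-identical in their protein sequence, and whether the acta2 probe also binds transcripts of the others was not tested.

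Of 32 listed regulators of smooth muscle, 21 had a probe and 19 passed the filter. At 96 hpf 1 of 18 was higher and 0 were lower by 2-fold, where 5.51% and 1.67% of genes were. Of the 18, 12 lay below 0, and the median was -0.17, against -0.05 over all genes. The share of all genes below 0 was not counted. The higher gene was ihha, a hedgehog ligand of endoderm that signals to the gut and swim bladder mesenchyme, at 3.10-fold on its 1 probe. The homeobox gene nkx2.3, expressed in gut mesenchyme, was 1.80-fold lower (-0.85) on its 1 probe, and 4.84% of all probes had a larger difference in that direction. Foxf2a, a forkhead gene, differed by -0.55. Serum response factor srfa differed by -0.22 on its brightest probe, which was dim, with log2 intensities of 4.99 to 5.21 over the 4 arrays. The other paralog, srfb, was not well above background at 96 hpf and was at least 4.17-fold lower there than at 24 hpf. Its limma adjusted p of 0.0075 belongs to the fall without the bound and rests on dim 96 hpf values. At 24 hpf 1 of 19 regulators was higher by 2-fold and 0 were lower, where 3.09% and 5.86% of all genes were. The higher one was the myocardin-related factor mrtfab, at 3.44-fold in the array labelled copper on its 1 probe. The size of this difference depended on the normalization, with 1.78 in log2 on quantile-normalized values, 2.25 with 75th-percentile scaling and 1.103 under normexp. The mrtfab probe was dim in the 24 hpf control, at a processed intensity of 31.5 against 254.7 in the array labelled copper. At 96 hpf mrtfab differed by 0.06. The forkhead gene foxf1 and the homeobox gene barx1, both expressed in gut mesenchyme, rose with age by 1.28 and 1.62 and were lower in the array labelled copper at 96 hpf, by 0.33 and 0.60. Over the regulators limma called 3 higher and 2 lower with age, where 17.3% and 15.1% of all genes were, and 14 were not called.

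Genes of mural cells, the contractile cells around small vessels, were few on this array, with 6 of 13 listed past the filter. At 96 hpf 1 of the 5 read on either array was higher by 2-fold (median -0.18), where 5.51% of genes were. With age limma called 1 of the 6 higher and 2 lower, where 17.3% and 15.1% of all genes were. The pericyte gene rgs5a, a regulator of G-protein signalling, had the members' pattern. Its brightest probe was 2.36-fold higher in the array labelled copper at 96 hpf, its other probe 2.97-fold, and it rose with age by 3.62 (SE 0.48, limma adjusted p = 0.000422). The probes of its relative rgs5b did not agree: the brighter differed by 0.05 at 96 hpf and was not called with age, while the dimmer was 1.69-fold higher under the copper label at 96 hpf and rose with age by 3.45 (SE 0.50, limma adjusted p = 0.000699). The receptors pdgfrb and notch3, which mural cells need, differed by -0.18 and -0.34 at 96 hpf, and notch3 fell with age by 2.07. The pdgfrb probe was dim, with processed intensities of 21.8 to 36.3 over the 4 arrays.

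Among the annexins, anxa5a had the largest copper difference at 96 hpf of the 17 genes, all of which passed the filter. The median was 0.16. By brightest probes 2 of 17 passed 2-fold on the higher side and 1 on the lower, where 5.51% and 1.67% of genes did. The second was anxa2b, at 2.27-fold on its 1 probe. Anxa2b had a pattern close to that of the smooth muscle genes, with log2 intensities of 7.72 and 6.26 at 24 hpf and 12.53 and 13.71 at 96 hpf, a rise with age of 6.13 (SE 0.58, limma adjusted p = 6.01e-05). The gene that was lower was anxa1c, at 2.55-fold, followed by anxa1d at 1.95-fold; both were lower on 2 of 2 probes and fell with age, by 2.07 and 1.74. The nearest paralog, anxa5b, was higher in the array labelled copper at 96 hpf on 3 of 3 probes, by 0.66 on the brightest and by 0.53 and 0.70 on the others, short of 2-fold on each. It rose with age by 1.69 (SE 0.31, limma adjusted p = 0.00295) and was already well above background at 24 hpf, with log2 intensities of 12.65 and 12.48. Both annexin A5 genes thus had the same direction in each comparison at 96 hpf and with age, and the anxa5a values were larger. The difference between the paralogs was not tested. Over the annexins limma called 6 higher and 2 lower with age, where 17.3% and 15.1% of all genes were. At 24 hpf 2 of 17 passed 2-fold on the lower side, where 5.86% of all genes did, namely anxa2b at 2.76-fold and anxa14 at 2.0-fold on its brighter probe.

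**Figure D3:**
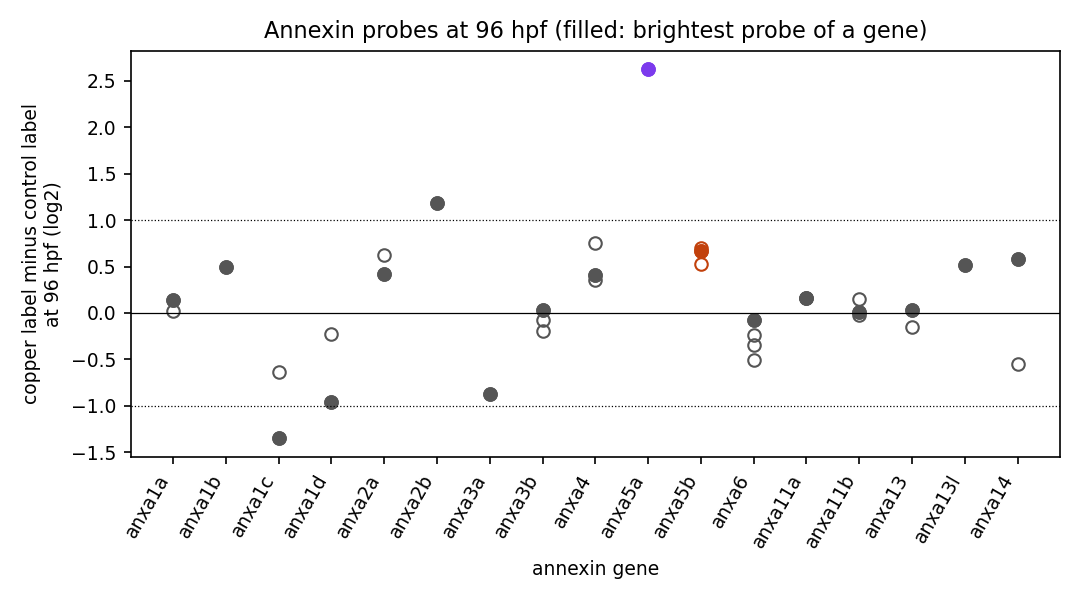
Copper label minus control label at 96 hpf (log2, vertical axis) for every annexin probe that passed the filter, by gene (horizontal axis); filled points are the brightest probe of a gene, violet is anxa5a and orange anxa5b, and dotted lines mark 2-fold. Anxa5a stands highest at 2.63, anxa2b is the other gene above 2-fold, and anxa1c is the one below.

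The list of genes named for the swim bladder had a median near 0 at 96 hpf. Of 30 listed, 27 had a probe and 25 passed the filter, and the median was 0.007. Of these 4 were higher by 2-fold or more, namely acta2, tagln, anxa5a and ihha, and 1 was lower, where 5.51% and 1.67% of genes were. Elovl1a, a fatty acid elongase, was the lower one at 2.27-fold on its 1 probe. The homeobox gene mnx1 and sox2, which mark the swim bladder epithelium as well as neural tissue, differed by -0.26 and -0.24, and the mesenchymal signal fgf10a by 0.09. With age 9 of the 25 were called higher and 5 lower, where 17.3% and 15.1% of all genes were. Without the 3 members 6 of 22 were called higher, and the median was 0.20. These genes are also expressed elsewhere in the embryo, so in whole-embryo RNA they do not read the organ alone.

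Which tissues carried the members' transcripts was not tested. Markers of skeletal muscle, heart muscle, fibroblasts and endothelium differed by less than 2-fold at 96 hpf on their brightest probes, apart from 2 that were lower. Over all lists the background was 5.51% of genes higher and 1.67% lower by that much. Of 18 skeletal muscle genes 0 were higher by 2-fold and 1, the troponin tnnt3a, was lower, with a median of -0.02. Of 10 heart muscle genes 0 were higher and 1, the natriuretic peptide nppa, was lower, with a median of -0.13. The nppa probes differed by -1.11 on the brightest and by -1.03, -0.83 and -0.41 on the others. Of 11 fibroblast genes 0 passed 2-fold either way (median -0.16), among them the collagen col1a1a at -0.06, and of 4 endothelial genes 0 did (median 0.14). With age, limma called 7 of 12 fibroblast genes higher and 2 lower, and 7 of 18 skeletal muscle genes higher and 2 lower. It called 2 of 10 heart genes higher and 1 lower, and 1 of 4 endothelial genes higher and 1 lower. Over all genes 17.3% were called higher and 15.1% lower. These counts are by brightest probes, and other probes of some skeletal muscle genes read differently. The brightest myhz1.1 probe rose by 0.45 and was not called, while its other probes rose by 1.66 to 2.53 and were called. Another probe of ckmb (1.13), of mylpfa (1.21) and of actc1b (0.98) was called higher, and 1 of acta1a lower (-0.67).

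**Figure D4:**
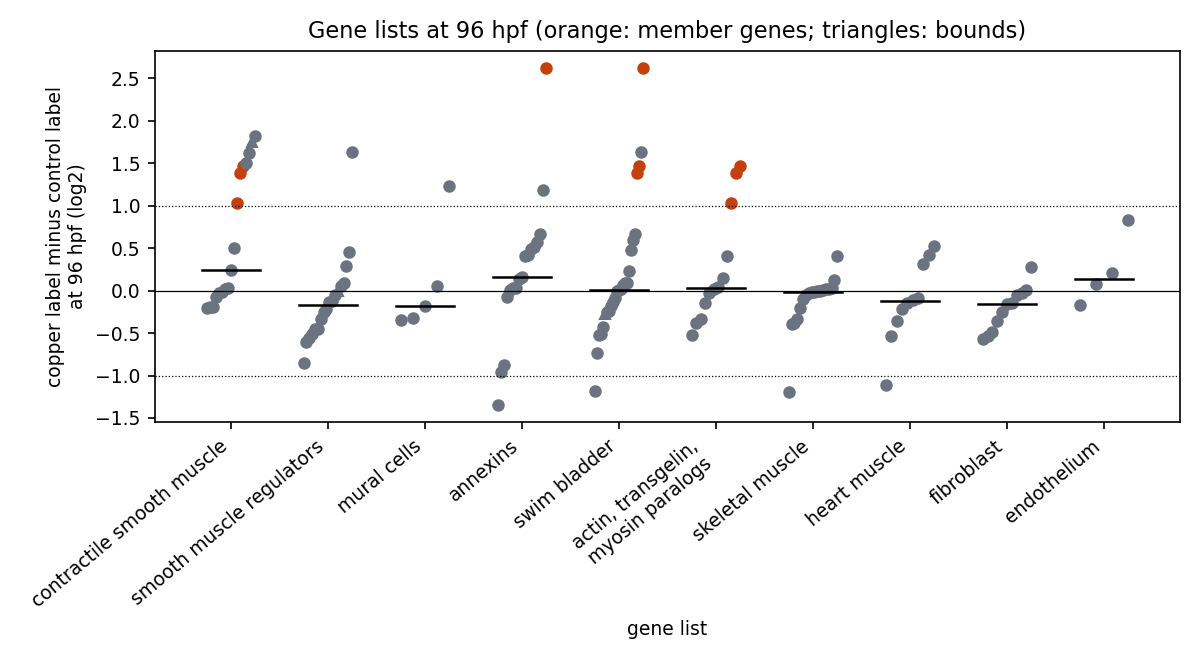
Copper label minus control label at 96 hpf (log2, vertical axis) for the brightest probe of each gene in 10 lists (horizontal axis); orange marks the member genes, triangles are bounds, black lines are list medians and dotted lines mark 2-fold. In the contractile smooth muscle list 7 genes are above 2-fold, and 4 without the members. Some genes stand in several lists, and none above 2-fold is in the skeletal muscle, heart muscle, fibroblast or endothelium lists.

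Genes whose 4 values were most like those of each member were found by the distance between log2 values centred on their own mean over the 4 arrays, among 12331 other genes. The nearest to acta2 was ada, an adenosine deaminase, at a distance of 0.20, followed by ctsl.1, rcvrn3, hpda and rom1b. For tagln they were rgs8 (0.14), rcvrn3, saga, plac8.1 and, at 0.37, acta2 itself. Acta2 and tagln were thus close to each other, with 6 genes nearer to acta2 and 4 nearer to tagln than the other of the pair. Myh11a had cabp1a, gnb5b, phkg1a, mstnb and lgals2b nearest, at 0.10 to 0.22, and 722 genes were nearer to it than acta2 was. Around anxa5a were bco1l, sult1st6, crp3, ptgdsb.2 and swift, at 0.29 to 0.40. With 4 arrays many genes share a pattern, and several of those named are genes of the retina (rcvrn3, rom1b, saga), so the likeness describes the values only.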

How the data were processed

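Spot intensity, per the file headers of the deposited scanner output, came from Agilent Feature Extraction 11.0.1.1, with background subtracted and no normalization between arrays. Per the series' design text the authors labelled RNA with the Quick Amp protocol (version 5.7) and normalized by quantiles in GeneSpring GX 11.5.1; the authors' deposited table of listed probes gives log2 fold changes past 2-fold, and its 16 columns of values per array were not used.

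Here log2 processed intensity was averaged over unflagged spots (34 of 43603 probes removed), quantile-normalized, and kept where 2 or more of the 4 arrays read it well above background (36026 probes). RefSeq accessions named 25957 probes through a table of assembly GRCz12tu. A gene's value is its brightest detected probe. Age and copper were fitted with limma 3.58.1 (R 4.3.3), eBayes with trend, tested on simulated data. Nothing says that arrays held separate embryo pools, so p-values cannot be read as the spread between pools. Each SE is moderated by eBayes toward that of probes of like intensity, so SE and p-values are not one probe's own spread. A gene dim on one array has a bound against the higher of its own value and the lowest value among probes well above background there. No spot was saturated. Python 3.11.15, pandas 2.3.3 and numpy 2.4.6 did the rest.

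Members and lists were chosen with earlier results of these data known. Beside all member probes, each list gives up to 5 genes by age difference and 3 by copper difference at each age past 2-fold. Any annexin or actin, transgelin and myosin relative, and the 5 genes nearest each member, are also named. Named after their values were seen were csrp1a, csrp1b, nkx2.3, foxf2a, myl9a, myl9b, myl6, desma, srfa, rgs5b, pdgfrb, mnx1, sox2, fgf10a, nppa, tnnt3a and col1a1a. So were myhz1.1, ckmb and mylpfa. Alternatives were 75th-percentile scaling, normexp (offset 50) on median spot and background intensity, no filter, detection on all 4 arrays, mean of probes, a 4-fold threshold, treatment as file names give it, eBayes without trend, age alone, and leaving out an array. The planned promoter motif search was not run, as promoter sequences were not used here.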

Additional observations from a re-analysis of the deposited data

Results flagged for a closer look

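For the brightest probe of each gene, the copper difference had opposite signs at the 2 ages. Acta2 was 1.47 (log2) at 96 hpf and -0.68 at 24 hpf, and tagln was 1.39 and -0.40. Myh11a was 1.03 and -0.63 on its brighter probe, while the dimmer probe was above 0 at both ages, and anxa5a was 2.63 and -0.66. With 1 array per group the difference between the ages was not tested, and the 24 hpf values depend on the normalization.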

How the results depend on the processing

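With the treatment as file names give it, every copper difference turned. At 24 hpf the values were then 0.68 for acta2, 0.40 for tagln, 0.63 for myh11a and 0.66 for anxa5a, and at 96 hpf -1.47, -1.39, -1.03 and -2.63, so that 0 of the genes were higher and 4 lower by 2-fold. At a 4-fold threshold 1 gene, anxa5a, was higher at 96 hpf. At 24 hpf 0 of the 4 genes passed 2-fold under any alternative run. All 4 genes were called higher with age under the other normalizations, filters, eBayes without trend and age alone, and 0 were called for copper over both ages. Without one array the number called with age ranged from 3 to 4, and the anxa5a rise from 3.04 to 5.67; the call of anxa5a was lost without the 24 hpf copper array. Under normexp the rises of anxa5a and tagln were 2.74 and 4.85, and both probes were dim at 24 hpf. The cause of the smaller rises was not tested. No paired analysis was possible with 1 array per group.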
